A study of Mus musculus with 6 samples.

Results

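The genes described here are 59 genes of distal mouse chromosome 12, in chromosome order from Angel1 to Crip1, among the 23224 genes of a table of expected counts. They were listed by symbol because this stretch of the chromosome had been seen to be higher in the libraries labelled SOX17KO than in the Control libraries, so they were chosen by the measured ratio of SOX17KO to Control in all 6 libraries, and that ratio is given below as a description. All 59 were found in the table, and 58 passed the low-count filter and were tested. RNA was sequenced from 3 libraries labelled SOX17KO and 3 labelled Control, all from AKP organoids, which are 3-dimensional cultures of tumour epithelium and here were grown from tumours that had formed in mice. The SOX17KO organoids had Sox17 targeted with CRISPR-Cas9, and the Control organoids are labelled only as Control. AKP is the labels' name for the organoids of both groups, and the labels do not spell it out. The labels do not give the mice, the driver of the original mutations, the number of clones or the guide, and nothing in them shows that the libraries within 1 group are from separate cultures. The spread between libraries, which is all that a p-value measures here, may therefore be technical. In such bulk RNA, fewer cells of a type and less RNA per cell cannot be told apart.

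Distal chromosome 12 carries genes of unrelated function side by side: enzymes, transcription factors, kinases, motor proteins and chaperones. It also holds the imprinted Dlk1-Dio3 domain, which is active mainly in embryo, placenta and brain, and the immunoglobulin heavy chain locus, which is active in B cells. Counts of RNA report how much transcript of each gene was present and do not measure DNA, which was not assayed in these files.

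The promoters of 54 of the 59 genes were matched in RefSeq sequences of GRCm38.p6, each running from 250 bases before to 50 after the first listed start. Shown here are the 3 that frame the range of values below, namely the gene with the largest ratio (Ckb), the gene with the lowest (Ttc8), and, among the 10 largest, the gene with the smallest error (Atxn3). Capitals mark the core letters ACAAT of the SOX family motif, on either strand, and the TATA box letters TATAAA. The positions, in GRCm38.p6 and not in the build of the counts, are chr12:111672289-111672588 (minus strand) for Ckb, chr12:98920324-98920623 (plus strand) for Ttc8 and chr12:101958194-101958493 (minus strand) for Atxn3.
Ckb: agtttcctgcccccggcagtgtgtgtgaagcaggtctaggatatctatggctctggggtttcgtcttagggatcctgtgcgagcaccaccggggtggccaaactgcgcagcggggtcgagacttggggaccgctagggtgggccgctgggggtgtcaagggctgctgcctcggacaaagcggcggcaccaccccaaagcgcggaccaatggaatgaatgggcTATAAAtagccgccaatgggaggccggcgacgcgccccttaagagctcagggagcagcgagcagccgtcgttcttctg
Ttc8: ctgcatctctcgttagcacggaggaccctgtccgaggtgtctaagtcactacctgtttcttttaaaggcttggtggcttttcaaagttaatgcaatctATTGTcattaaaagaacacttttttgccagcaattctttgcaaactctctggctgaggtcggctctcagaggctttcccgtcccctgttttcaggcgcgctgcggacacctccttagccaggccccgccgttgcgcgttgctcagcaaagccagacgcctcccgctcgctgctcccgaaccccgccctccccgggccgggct
Atxn3: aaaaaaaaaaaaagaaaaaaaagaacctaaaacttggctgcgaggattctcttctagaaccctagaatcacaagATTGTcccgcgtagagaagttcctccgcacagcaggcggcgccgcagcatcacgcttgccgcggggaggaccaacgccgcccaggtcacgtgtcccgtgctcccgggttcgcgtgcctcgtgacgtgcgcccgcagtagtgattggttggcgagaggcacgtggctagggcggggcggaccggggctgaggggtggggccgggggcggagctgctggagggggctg
Ckb was the only 1 of the 54 promoters with TATAAA on either strand, which 7.1% of the promoters of 8667 tested genes held. The SOX core was in 9 of the 54 (16.7%), against 20.3% of the promoters of tested genes, and the GC box GGGCGG was in 39 (72.2%), against 65.2%. The median GC content was 64.8% in the 54 promoters and 61.0% in those of tested genes. These motifs were searched on both strands, CCAAT (40.7% against 39.6%), CCGGAAG (11.1% against 18.8%) and CACGTG (9.3% against 10.4%) likewise. A match or its absence describes the letters in this window only.

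Each library held 18290912 to 27503254 counts. SOX17KO replicate 1 stood apart, with correlations of log2 CPM (counts scaled to a common library size) of 0.960 and 0.963 to the other SOX17KO libraries, against 0.986 between those and 0.994 to 0.995 among the Control libraries. Some values that rest on it are therefore also given without it. A value given only with it may still depend on it. Sox17 measured 33.8, 41.9 and 45.1 CPM in SOX17KO and 34.4, 34.5 and 34.2 CPM in the Control libraries. Its log2 fold change was 0.23 with all libraries (edgeR adjusted p = 0.345). Without SOX17KO replicate 1 it was 0.34, and Sox17 was then called higher (edgeR adjusted p = 0.0113). The level of Sox17 therefore does not check the labels, and SOX17KO below names libraries by their label. The 12 epithelial markers summed to 10204.5 to 14456.7 CPM in SOX17KO and 13540.9 to 14311.7 CPM in Control, a sum made up mostly of Krt8, Krt18 and Krt19. Of the 10 tested epithelial markers, Lgr5, Cldn7 and Epcam were called higher, with ratios of 3.24, 1.35 and 1.27. In 6 of the 10 every SOX17KO library lay above every Control library, in 1 every one lay below, and in 3 the groups overlapped. The 6 include Cdh1, Cdx2 and Sox9, with ratios of 1.17, 1.08 and 1.22, which were not called. The 1 below was Krt19, with a ratio of 0.787, which was not called. The 8 fibroblast markers summed to 0.111 to 0.420 CPM in SOX17KO and 0 to 0.0724 CPM in Control, the 6 endothelial markers to 1.98 to 2.79 and 1.96 to 2.63 CPM, and the 9 immune markers, nearly all of it Cd68, to 5.33 to 14.1 and 8.75 to 11.1 CPM. Among the epithelial markers SOX17KO replicate 1 had the lowest sum, and 4 fibroblast, 3 immune and 1 endothelial marker were at 0 in every library.

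Most of the listed genes, which are not all genes from Angel1 to Crip1, were higher in SOX17KO by a similar ratio. The median ratio of mean CPM, SOX17KO to Control, was 1.42 over the 58 tested genes, and 40 of the 58 lay between 1.3 and 1.7, as did 5.59% of all 12137 tested genes. The median log2 fold change was 0.50 with quartiles of 0.41 and 0.65, against 0.01 with quartiles of -0.14 and 0.15 over all tested genes. A positive log2 fold change was seen in 55 of the 58 genes and in 52.7% of all tested genes. Every SOX17KO library lay above every Control library in 49 of the 58 genes (14.0% of all tested genes), every one lay below in 1 (14.2%), and the groups overlapped in 8. With edgeR's quasi-likelihood test at a Benjamini-Hochberg adjusted p below 0.05, 33 of the 58 were called higher (3.67% of all tested genes) and 1 was called lower (3.20%); 6.87% were called in either direction. Since this contrast chose the genes, nothing is read from those shares. The count of 33 rests on the libraries: it was 51 without SOX17KO replicate 1, 22 and 29 without SOX17KO replicates 2 and 3, and 5, 3 and 3 without Control replicates 1, 2 and 3. The median log2 fold change was 0.49 to 0.52 in all of these, and 0.51 without SOX17KO replicate 1. Over all genes the calls higher also moved, from 446 with all libraries to 1453 without SOX17KO replicate 1. They were 99, 98 and 97 without Control replicates 1, 2 and 3. Counts with 1 library left out, here and below, are to be read beside these totals.

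**Figure D1:**
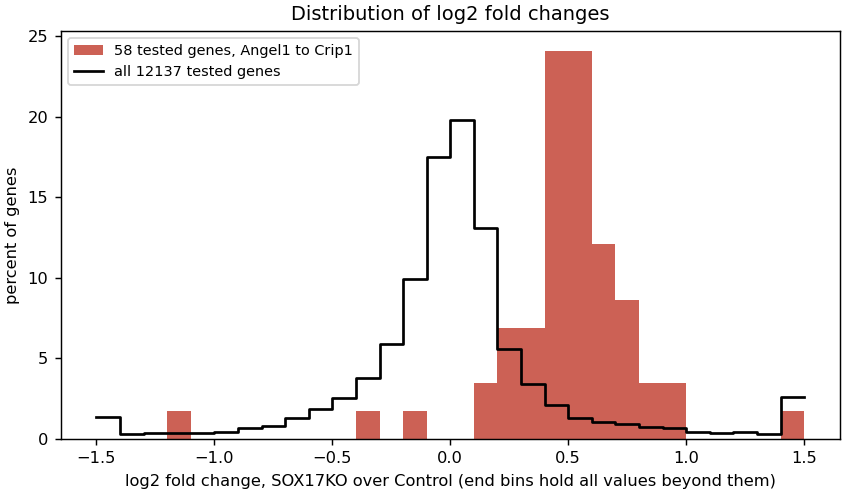
Percent of genes (vertical axis) by log2 fold change, SOX17KO over Control (horizontal axis, bins of 0.1). Bars are the 58 listed genes that were tested, and the line is all 12137 tested genes. The bars centre on the median of 0.50 and the line on 0.01, with Ttc8 at -1.10 and Ckb in the last bin.

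By library, the median difference from the Control mean on the log2 CPM scale was 0.45 in SOX17KO replicate 1, 0.51 in replicate 2 and 0.54 in replicate 3. Each Control library set against the other two gave medians of 0.07, -0.01 and -0.01. The difference was above 0 in 50, 56 and 56 of the 58 genes in SOX17KO replicates 1, 2 and 3, and in 35, 26 and 25 in Control replicates 1, 2 and 3. Summed over the 58 genes, the level was 6767.8, 7443.4 and 7422.8 CPM in SOX17KO replicates 1, 2 and 3 and 5218.4, 5137.6 and 5095.8 CPM in Control replicates 1, 2 and 3. All 3 SOX17KO sums were above all 3 Control sums. The first 29 tested genes in chromosome order had a median log2 fold change of 0.54 and the last 29 had 0.48. Across the 58 genes, which share libraries and depth, the correlation of log2 fold change with mean log2 CPM was -0.05, given as a description.

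**Figure D2:**
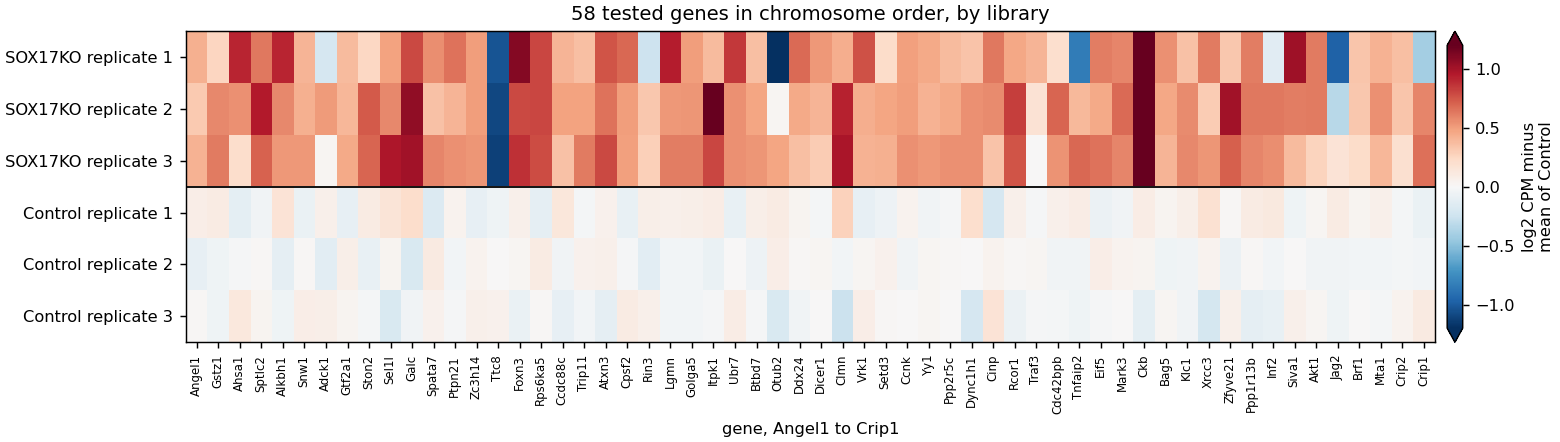
Log2 CPM minus the mean of the Control libraries (colour, with values beyond -1.2 and 1.2 at the ends of the scale) for the 58 tested genes in chromosome order (columns) in each library (rows, SOX17KO above Control). Most columns are red in all 3 SOX17KO libraries, Ttc8 is blue in all 3, and Otub2, Tnfaip2, Jag2 and Crip1 are blue in SOX17KO replicate 1.

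The higher values did not begin at Angel1 or end at Crip1. Gene order was taken from RefSeq. The 283 tested genes of chromosome 12 before Ttll5 had a median log2 fold change of -0.02. The 20 nearest to Ttll5 had 0.04, with quartiles of -0.08 and 0.14 and a range of -0.85 to 2.58. Of these 20, 11 were positive, 9 were negative and 1, Rps6kl1 at 2.58, was called higher. Mfsd7c (Flvcr2 in RefSeq), also among the 20, was at 1.49 and was not called. Ttll5 was taken as the edge after its values were seen. The last of the 20, 0610007P14Rik (Erg28 in RefSeq), was at 81.5, 80.9 and 72.4 CPM in SOX17KO and 70.7, 77.5 and 75.6 CPM in Control, with a log2 fold change of 0.07 ± 0.08 (SE). The next gene, Ttll5, a tubulin polyglutamylase, was at 109.7, 98.7 and 89.5 CPM in SOX17KO and 66.0, 63.1 and 63.0 CPM in Control, with a log2 fold change of 0.63 ± 0.09. Of the 5 tested genes just before Angel1, which begin with Ttll5, 4 were called higher (3.67% of all tested genes). Gm805, at under 1 CPM in every library and with a log2 fold change of -0.53, was not. The others are Tgfb3, a growth factor of the TGF-beta family, 1700019E19Rik (Ift43 in RefSeq), a part of the transport machinery of cilia, and 1700020O03Rik (Gpatch2l). Tgfb3 was at 3.55, 11.1 and 4.77 CPM in SOX17KO and 1.23, 1.48 and 1.22 CPM in Control. These 3 SOX17KO values of Tgfb3 were far apart, but all were above the Control values. 1700019E19Rik was at 27.5, 39.4 and 30.9 CPM in SOX17KO and 19.7, 18.2 and 17.8 CPM in Control. 1700020O03Rik, the nearest to Angel1, was at 31.4, 43.1 and 45.1 CPM in SOX17KO and 23.6, 23.4 and 22.9 CPM in Control. None of the 4 kept its call with every library left out in turn (highest edgeR adjusted p 0.0806 for Ttll5, 0.147 for Tgfb3, 0.122 for 1700019E19Rik and 0.128 for 1700020O03Rik).

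Just inside the first limit, Angel1, a member of the deadenylase-related endonuclease family, was at 16.2, 14.9 and 16.0 CPM in SOX17KO and 12.7, 11.2 and 12.1 CPM in Control. Just inside the last, Crip1, a small LIM domain protein, was at 189.9, 379.6 and 398.4 CPM in SOX17KO and 238.3, 246.7 and 271.3 CPM in Control. Between these limits lie 71 further tested genes that were not listed. Their log2 fold changes had quartiles of 0.18 and 0.58 around a median of 0.41. Of the 71, 63 were positive (52.7% of all tested genes) and 18 were called higher (3.67%). That count was 41 without SOX17KO replicate 1, 11 and 15 without SOX17KO replicates 2 and 3, and 3, 1 and 3 without Control replicates 1, 2 and 3. Among them is Hsp90aa1, the cytosolic chaperone whose ATPase is activated by the product of the listed gene Ahsa1, at 1530.7, 1365.2 and 1327.2 CPM in SOX17KO and 958.4, 1133.5 and 1192.5 CPM in Control. All its SOX17KO values were above its Control values, and its log2 fold change of 0.36 ± 0.11 was not called (edgeR adjusted p = 0.116). The imprinted genes Dlk1, Meg3 and Dio3 had 0 counts in every library, and Rian, Mirg and Rtl1 were at 0.184 CPM or less.

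After Crip1, 11 tested genes remained to the end of the chromosome, with a median log2 fold change of 0.54. Of the 11, 10 had every SOX17KO library above every Control library (14.0% of all tested genes) and 3 were called higher (3.67%). Without SOX17KO replicate 1, 9 were called, without replicate 2, 2 were, and without any other library 1 was; DESeq2 called 6. The 5 nearest to Crip1 were 4930427A07Rik (Tedc1 in RefSeq), Zfp386, Wdr60, Esyt2 and D430020J02Rik, with log2 fold changes of 0.47, 0.78, 0.40, 0.54 and -0.03. Zfp386, a zinc finger gene, was at 43.6, 47.4 and 44.6 CPM in SOX17KO and 25.0, 28.8 and 25.0 CPM in Control, and stayed called with each library left out (highest edgeR adjusted p 0.0475). Macc1, a regulator of the receptor gene Met in colon cancer and the last tested gene of the chromosome, was at 98.5, 89.6 and 114.4 CPM in SOX17KO and 65.7, 70.1 and 73.8 CPM in Control, and differed by 0.53 ± 0.11 on the log2 scale (edgeR adjusted p = 0.0328, and up to 0.162 with 1 library left out).

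**Figure D3:**
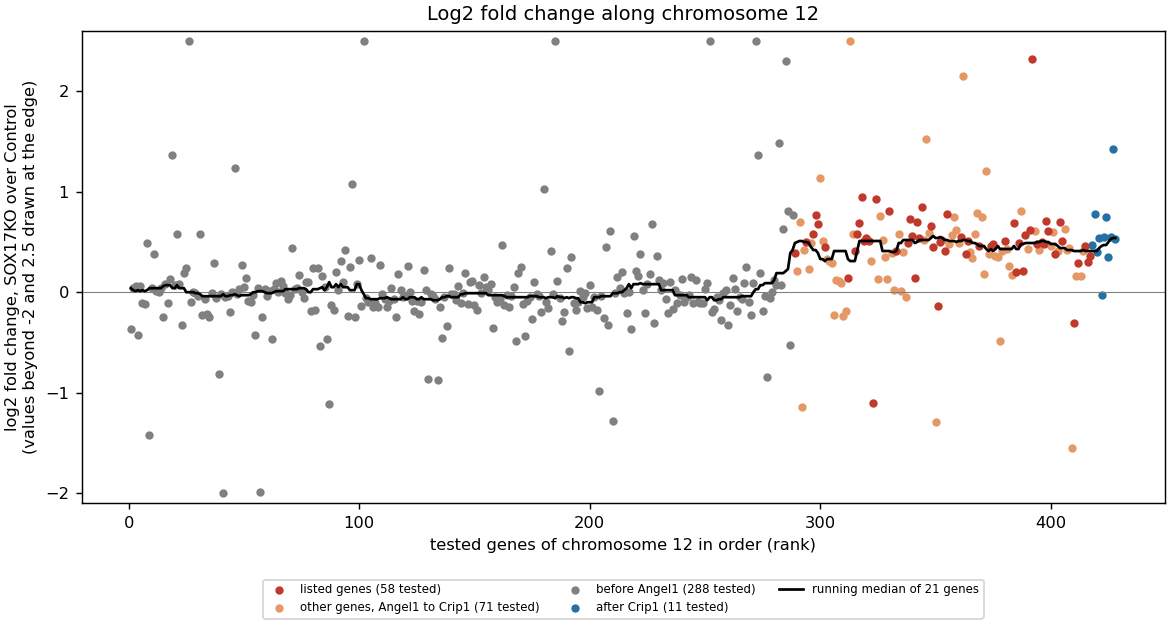
Log2 fold change, SOX17KO over Control (vertical axis, values beyond -2 and 2.5 drawn at the edge), of 428 tested genes of chromosome 12 in order (horizontal axis, rank); colours mark the listed genes, the other genes between Angel1 and Crip1, and the genes before and after, and the line is a running median of 21 genes. The line stays near 0 up to the genes next to Ttll5 and above 0 from there to the last gene.

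Genes of the endoplasmic reticulum, Golgi, lysosome and lipid synthesis were all called higher, 6 of 6 (3.67% of all tested genes), with a median log2 fold change of 0.69. The genes were chosen by this ratio, so nothing about a role is read from the counts of this and the following role groups. Without single libraries 5 or 6 stayed called when a SOX17KO library was left out, and 0 or 1 when a Control library was. Sel1l, the adaptor of the ubiquitin ligase that clears misfolded proteins from the endoplasmic reticulum (ERAD), was at 202.8, 217.7 and 286.4 CPM in SOX17KO and 161.5, 149.1 and 128.7 CPM in Control. Sptlc2, a subunit of the enzyme that starts sphingolipid synthesis, was at 197.5, 247.1 and 209.5 CPM in SOX17KO and 124.6, 128.8 and 130.2 CPM in Control, a ratio of 1.71. The lowest SOX17KO value of each gene was above its highest Control value. Galc, the lysosomal enzyme that removes galactose from galactosylceramide, was at 20.6, 24.8 and 23.9 CPM in SOX17KO and 13.8, 10.5 and 11.5 CPM in Control, a ratio of 1.94 and the largest after Ckb among the tested genes. Lgmn, the lysosomal protease legumain, was at 41.8, 31.0 and 33.1 CPM in SOX17KO and 22.6, 21.3 and 21.2 CPM in Control. The golgins Trip11 and Golga5, which tether vesicles at the Golgi, had ratios of 1.41 and 1.46. Trip11 was at 92.2, 100.1 and 109.7 CPM in SOX17KO and 70.7, 73.9 and 70.1 CPM in Control, and its groups did not overlap.

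Genes of transcription and chromatin had the narrowest spread between SOX17KO libraries of the role groups, with a median SD of 0.0602 on the log2 CPM scale. The median SD was 0.149 over the 58 genes and 0.203 over all tested genes, which were not matched for level. Of the 8 genes of transcription and chromatin, 7 were called higher (3.67% of all tested genes). All 8 had every SOX17KO library above every Control library (14.0% of all tested genes). Yy1, a zinc finger transcription factor, was at 146.5, 143.1 and 153.4 CPM in SOX17KO and 104.2, 109.1 and 108.5 CPM in Control, a log2 fold change of 0.46 ± 0.07. Snw1, a transcriptional coactivator and splicing factor, was at 163.4, 165.9 and 176.7 CPM in SOX17KO and 116.2, 123.7 and 129.8 CPM in Control. In GENCODE M21, 44.2% of the exon bases of Snw1 also belong to Slirp on the other strand, so the Snw1 value is uncertain where the counting did not use strand, a setting no source used here gives. Rcor1, the CoREST corepressor, was at 86.9, 112.5 and 106.7 CPM in SOX17KO and 65.9, 63.9 and 60.3 CPM in Control. Foxn3, a forkhead repressor, was at 19.8, 16.0 and 17.0 CPM in SOX17KO and 9.59, 9.33 and 8.71 CPM in Control, a ratio of 1.91. Gtf2a1, a subunit of the general factor TFIIA, Ccnk, a cyclin of the kinases that act on RNA polymerase II, and Mta1, of the NuRD complex, had ratios of 1.33, 1.42 and 1.37. Brf1, a subunit of the RNA polymerase III factor TFIIIB, had the smallest ratio of the 8, 1.22, and was not called. Without 1 Control library none of the 8 was called (edgeR), whereas 7 were with limma-voom and 8 with DESeq2. With all libraries 8 had an unadjusted edgeR p below 0.05. The share of all tested genes at that unadjusted threshold is not given, here or below, so nothing is read from such counts.

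Among 9 genes of RNA processing, translation and repair, 6 were called higher (3.67% of all tested genes). All 9 had every SOX17KO library above every Control library (14.0% of all tested genes). Eif5, which triggers GTP hydrolysis on the initiating ribosome, was at 689.4, 617.9 and 712.4 CPM in SOX17KO and 432.1, 477.4 and 450.8 CPM in Control, a ratio of 1.48. Cpsf2, of the complex that cleaves the ends of messenger RNA, was at 223.5, 197.0 and 195.1 CPM in SOX17KO and 130.3, 138.0 and 148.8 CPM in Control. Zc3h14, a poly(A)-binding zinc finger protein, was at 192.3, 192.6 and 196.9 CPM in SOX17KO and 127.1, 139.4 and 141.7 CPM in Control. For Zc3h14 the SOX17KO libraries differed by only 0.03 on the log2 scale; some of its exon bases overlap Eml5 on the other strand. Dicer1, the nuclease that produces microRNAs, and Ddx24, an RNA helicase, had ratios of 1.33 and 1.42, and Alkbh1, a demethylase of transfer RNA, had 1.60. Angel1, the DNA repair gene Xrcc3 and Cinp, a protein of the DNA damage checkpoint, had ratios of 1.31, 1.40 and 1.42 and were not called. With SOX17KO replicate 2 left out 3 of the 9 were called, and with any 1 Control library left out none was (edgeR; 9 had an unadjusted p below 0.05 with all libraries).

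Kinases, phosphatases and adaptors of signalling held 16 genes, of which 8 were called higher (3.67% of all tested genes). Akt1, the kinase at the centre of growth factor signalling, was at 510.6, 511.3 and 400.7 CPM in SOX17KO and 335.5, 323.0 and 337.3 CPM in Control, a log2 fold change of 0.51 ± 0.11 (SE). Ppp2r5c, a regulatory subunit of protein phosphatase 2A, was at 237.9, 249.1 and 267.8 CPM in SOX17KO and 181.2, 183.4 and 183.1 CPM in Control, a ratio of 1.38. Both genes were higher in every SOX17KO library than in any Control library. Cdc42bpb, a kinase that acts on the actomyosin cytoskeleton, was at 245.2, 345.5 and 309.5 CPM in SOX17KO and 222.4, 206.9 and 210.1 CPM in Control, with replicate 1 the lowest SOX17KO library. Rps6ka5, the kinase MSK1, was at 3.93, 3.95 and 3.88 CPM in SOX17KO and 2.06, 2.39 and 2.24 CPM in Control, a ratio of 1.76 at a low level. Itpk1, an inositol phosphate kinase, was at 42.0, 75.9 and 56.4 CPM in SOX17KO and 34.4, 30.5 and 31.9 CPM in Control; its SOX17KO values were all higher but far apart, and it was not called.

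Ptpn21, a tyrosine phosphatase, Ccdc88c, which binds Dishevelled in Wnt signalling, Vrk1, a nuclear kinase, Mark3, a microtubule affinity-regulating kinase, and Ppp1r13b, the p53-binding protein ASPP1, were called higher with ratios of 1.46, 1.33, 1.46, 1.54 and 1.52. Siva1, an apoptosis gene, had a ratio of 1.62 and was not called. The remaining 5 of the 16, Traf3, Tnfaip2, Jag2, Rin3 and Adck1, had groups that overlapped and are given below. The count of 8 was 13 without SOX17KO replicate 1, 4 without replicate 2 and 7 without replicate 3, and it was 2, 1 and 1 without Control replicates 1, 2 and 3.

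Of 8 genes for ubiquitin handling, chaperones and other enzymes, 4 were called higher (3.67% of all tested genes). Ckb, the brain-type creatine kinase, was at 20.7, 15.5 and 20.1 CPM in SOX17KO and 3.98, 3.83 and 3.42 CPM in Control. Its ratio of 5.02 and log2 fold change of 2.32 ± 0.16 were the largest of the 58, and every alternative kept it between 2.24 and 2.45. Ckb was thus the one gene of the 58 with a ratio above 2. Ratios above 2 were also seen in unlisted genes between Angel1 and Crip1. Dio2, at a low level, Bcl11b and Wars had ratios of 11.2, 4.47 and 2.32 and were called higher. Only Bcl11b of these 3 stayed called with each library left out (highest edgeR adjusted p 0.0285, against 0.138 for Dio2 and 0.0577 for Wars). Moap1 and Nrp, with log2 fold changes of 1.53 and 1.14, were not called. Of the unlisted genes there, 0 were called lower (3.20% of all tested genes), and the count was 2 without SOX17KO replicate 1. The lowest log2 fold change among them, -1.55 in Gpr132, was not called. Atxn3, a deubiquitinase known from spinocerebellar ataxia, was at 63.9, 59.5 and 65.9 CPM in SOX17KO and 39.2, 39.6 and 35.2 CPM in Control, a log2 fold change of 0.73 ± 0.09. Ubr7, a ubiquitin ligase of histone H2B, was at 73.7, 59.7 and 59.9 CPM in SOX17KO and 38.2, 40.9 and 43.4 CPM in Control. Ahsa1, the activator of HSP90, was at 222.7, 173.1 and 136.8 CPM in SOX17KO and 108.7, 117.7 and 129.8 CPM in Control. Its replicate 1 was the highest SOX17KO library, the groups did not overlap, and it was not called; the log2 fold change was 0.58 with that library and 0.38 without it. Setd3, the methyltransferase of actin, was at 204.3, 242.4 and 235.6 CPM in SOX17KO and 167.7, 181.0 and 176.5 CPM in Control. Bag5, a co-chaperone of HSP70, had a ratio of 1.39 and was called; Gstz1, an enzyme of tyrosine breakdown, had 1.41 and was not. In Gstz1 9.14% of exon bases overlap Pomt2 on the other strand. The 4 calls were 7 without SOX17KO replicate 1 and 2 without any 1 Control library.

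Cytoskeletal, ciliary and traffic genes had 2 calls higher and 1 lower among the 9 tested (3.67% and 3.20% of all tested genes). Dync1h1, the heavy chain of cytoplasmic dynein, was at 516.1, 596.5 and 595.2 CPM in SOX17KO and 467.7, 405.1 and 354.2 CPM in Control, and was not called. Klc1, a kinesin light chain, was called and was at 157.6, 183.1 and 185.5 CPM in SOX17KO and 130.2, 120.5 and 120.6 CPM in Control. Clmn, which encodes calmin, was at 48.0, 67.3 and 70.0 CPM in SOX17KO and 43.2, 34.8 and 29.7 CPM in Control, with a ratio of 1.72. Zfyve21, an endosomal protein, was at 16.0, 25.7 and 21.0 CPM in SOX17KO and 12.8, 12.1 and 13.3 CPM in Control. In these genes the groups did not overlap, although the SOX17KO libraries of Clmn and Zfyve21 were far apart. Btbd7, the second gene called higher, Ston2, an endocytic adaptor, and Spata7, a ciliary gene, had ratios of 1.37, 1.49 and 1.42. The 2 calls were 7 without SOX17KO replicate 1 and 0 without any other library (edgeR); limma-voom called 2 and DESeq2 6, and 7 had an unadjusted edgeR p below 0.05. Evl, an actin regulator, was the 1 listed gene not tested, with 19.5 counts over the SOX17KO libraries and 10.6 over the Control libraries.

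Ttc8 was the 1 gene called lower. It encodes a subunit of the BBSome, which carries membrane proteins to cilia. It was at 2.63, 2.55 and 2.49 CPM in SOX17KO and 5.32, 5.51 and 5.71 CPM in Control, a ratio of 0.464 and a log2 fold change of -1.10 ± 0.16 (SE). The SOX17KO libraries differed by only 0.08 on the log2 scale, and every alternative kept the log2 fold change between -1.13 and -1.09. The nearest listed genes on its 2 sides, Zc3h14 and Foxn3, had ratios of 1.43 and 1.91. Between Zc3h14 and Ttc8 lies the unlisted Eml5, with a log2 fold change of 0.31, which was not called. Without any 1 Control library Ttc8 was not called.

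In 8 genes the groups overlapped: Adck1, Rin3, Otub2, Traf3, Tnfaip2, Inf2, Jag2 and Crip1. In all but Traf3, SOX17KO replicate 1 lay below every Control library. That held for 8 of the 58 genes in replicate 1 (these 7 and Ttc8), for 2 in replicate 2 (Jag2 and Ttc8) and for 1 in replicate 3 (Ttc8), against 40.3%, 36.1% and 37.2% of all tested genes in replicates 1, 2 and 3. Otub2, a deubiquitinase, was at 6.37, 18.7 and 25.6 CPM in SOX17KO and 19.7, 19.6 and 16.3 CPM in Control. Its log2 fold change was -0.14 with all libraries and 0.25 without SOX17KO replicate 1. The largest gap between SOX17KO libraries in the 58 genes, 1.99 on the log2 scale, was in Otub2. Tnfaip2, induced by tumour necrosis factor, was at 64.9, 152.6 and 188.3 CPM in SOX17KO and 123.6, 113.3 and 112.7 CPM in Control. Its log2 fold change of 0.21 was 0.55 without SOX17KO replicate 1 and -0.10 without replicate 3. Jag2, a ligand of Notch receptors, was at 55.8, 87.2 and 122.8 CPM in SOX17KO and 117.2, 106.5 and 105.8 CPM in Control. Only replicate 3 of Jag2 was above the Control values, and the log2 fold change of -0.31 was -0.07 without replicate 1.

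Crip1, whose values are given above, was below the Control libraries only in SOX17KO replicate 1. Its log2 fold change was 0.36 with that library and 0.62 without it. Inf2, a formin that builds actin filaments, was at 194.0, 330.1 and 314.1 CPM in SOX17KO and 232.4, 208.8 and 200.9 CPM in Control, with log2 fold changes of 0.38 with replicate 1 and 0.59 without it. Rin3, an activator of the endosomal GTPase RAB5, was at 39.1, 58.3 and 56.8 CPM in SOX17KO and 49.0, 42.5 and 48.5 CPM in Control. The log2 fold change of Rin3 was 0.14 with replicate 1 and 0.30 without it. In Crip1, Inf2 and Rin3 alike, SOX17KO replicates 2 and 3 lay above the Control values. Adck1, a mitochondrial kinase-like protein, was at 6.64, 10.9 and 7.76 CPM in SOX17KO and 7.96, 7.00 and 7.99 CPM in Control. Its log2 fold change of 0.14 was 0.29 without SOX17KO replicate 1 and -0.09 without replicate 2. Traf3, an adaptor that restrains noncanonical NF-kappaB signalling, was the reverse case, at 118.2, 100.1 and 88.8 CPM in SOX17KO and 88.5, 90.5 and 88.2 CPM in Control. Its log2 fold change was 0.20 with replicate 1 and 0.08 without it. Crip2, the LIM domain gene next to Crip1, did not share its pattern, with 159.2, 155.8 and 141.4 CPM in SOX17KO and 121.6, 122.2 and 127.4 CPM in Control. Neither Crip1 nor Crip2 was called with all libraries.

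**Figure D4:**
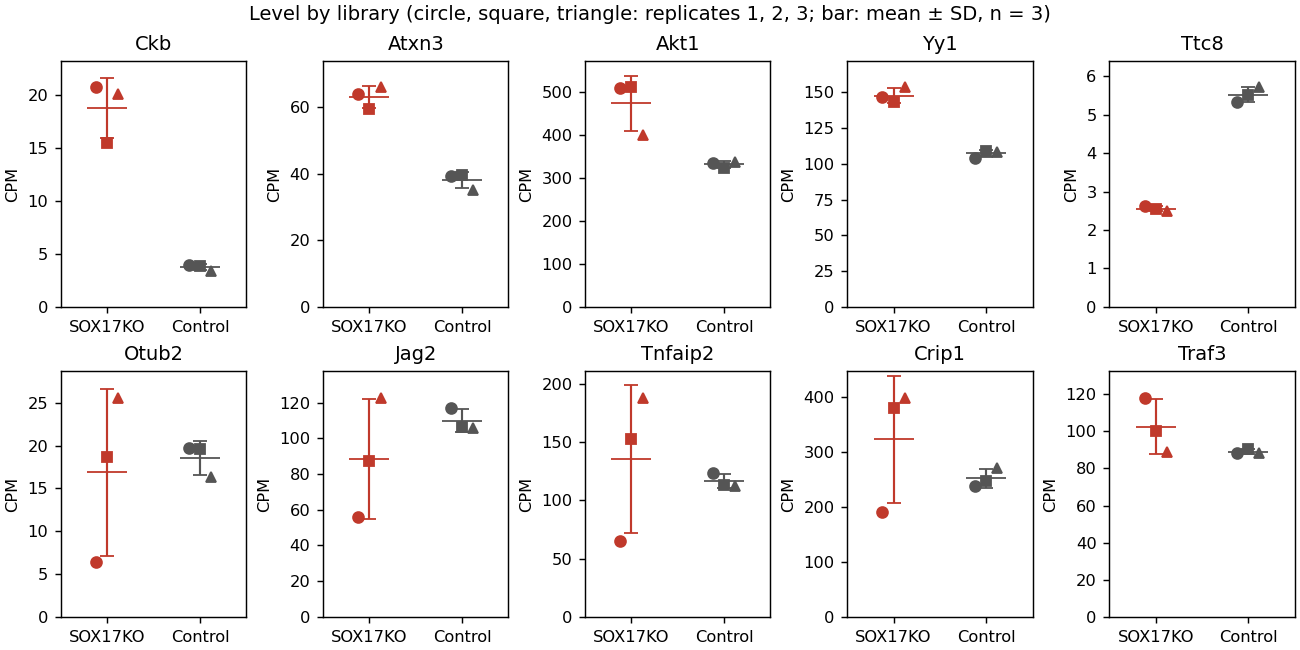
CPM (vertical axes, from 0) of 10 genes in each library of SOX17KO (left, red) and Control (right, grey); circles, squares and triangles are replicates 1, 2 and 3, and bars are the mean ± SD (n = 3). Ckb, Atxn3, Akt1 and Yy1 are above and Ttc8 below the Control values in every SOX17KO library, while Otub2, Jag2, Tnfaip2 and Crip1 are lowest in SOX17KO replicate 1 and Traf3 is highest there.

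Relatives of these genes elsewhere in the genome were compared in the same fit. Of 69 family members of the listed genes, none of them on chromosome 12 from Angel1 on, 58 were tested; their median log2 fold change was 0.00, with 29 above and 29 below 0. In this list 1 was called higher and 1 lower (3.67% and 3.20% of all tested genes). Those counts were 9 and 4 without SOX17KO replicate 1, and 0 and 0 without any 1 Control library (edgeR). Over all genes the calls without SOX17KO replicate 1 were 1453 higher and 1255 lower, in place of 446 and 388. With all libraries 5 of these relatives were higher and 4 lower at an unadjusted edgeR p below 0.05, a threshold for which no share of all tested genes is given. Sel1l3, related to Sel1l, was at 107.8, 179.3 and 167.5 CPM in SOX17KO and 83.7, 79.1 and 73.0 CPM in Control (edgeR adjusted p = 0.0293). Rad51c, a recombination gene related to Xrcc3, was at 7.02, 7.33 and 6.82 CPM in SOX17KO and 11.0, 12.1 and 12.3 CPM in Control (edgeR adjusted p = 0.0145). Neither stayed called with each library left out (highest edgeR adjusted p 0.151 and 0.104). Vasp, an actin regulator related to Evl and the most abundant by CPM in this list, was at 251.8, 349.2 and 314.1 CPM in SOX17KO and 336.5, 334.1 and 326.3 CPM in Control.

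Pathway partners encoded elsewhere had median log2 fold changes near 0. Of 14 tested ERAD partners of Sel1l, 2 were called lower (3.20% of all tested genes), and the median log2 fold change was -0.06. Ube2g2, a ubiquitin-conjugating enzyme, was at 65.8, 66.1 and 72.3 CPM in SOX17KO and 91.1, 88.0 and 94.0 CPM in Control, and Aup1, which recruits it, was at 108.4, 127.8 and 112.3 CPM in SOX17KO and 152.0, 147.7 and 152.1 CPM in Control. The 12 microRNA pathway partners of Dicer1 had a median of -0.05 and 1 call, Eif2c1 (Ago1), an Argonaute gene, at 89.1, 92.9 and 100.7 CPM in SOX17KO and 137.8, 126.6 and 126.0 CPM in Control. Without any 1 Control library none of these 3 was called (edgeR). The 17 partners of Akt1 in PI3K and mTOR signalling had a median of 0.02 and 0 calls (edgeR; 1 had an unadjusted p below 0.05, and DESeq2 and limma-voom called 0). Among 13 Notch partners of Jag2, with a median of 0.02, the ligand Dll4 was called higher and the ligand Dll1 lower, both at low levels and neither called without any 1 Control library. The members of that list went both ways. In 4 every SOX17KO library was above every Control library (14.0% of all tested genes), and in 4 every one was below (14.2%). Without SOX17KO replicate 1 the calls in that list were 5 higher and 2 lower (1453 and 1255 over all genes). The receptor Notch1 was at 91.7, 28.5 and 21.9 CPM in SOX17KO and 15.2, 14.2 and 14.0 CPM in Control, with log2 fold changes of 1.71 with replicate 1 and 0.80 without it. The receptor Notch3 was at 9.62, 25.4 and 31.7 CPM in SOX17KO and 50.2, 44.0 and 36.8 CPM in Control. Its log2 fold change was -0.98 with replicate 1 and -0.62 without it. Neither receptor was called with all libraries, and both were without SOX17KO replicate 1 (edgeR adjusted p 0.00116 for Notch1 and 0.0105 for Notch3). Dll4 was at 3.36, 1.72 and 1.95 CPM in SOX17KO and 0.485, 0.622 and 0.495 CPM in Control, and Dll1 at 0.725, 0.571 and 0.942 CPM in SOX17KO and 1.77, 1.72 and 1.83 CPM in Control. Adam10, a protease that cleaves Notch receptors and the most abundant by CPM of that list, was at 223.0, 311.1 and 338.3 CPM in SOX17KO and 287.8, 301.4 and 277.4 CPM in Control, with replicate 1 the lowest library.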

How the data were processed

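RNA was measured in 3 SOX17KO and 3 Control libraries of AKP organoids. Per the labels' protocols, RNA was column-purified, poly(A)-selected and made into directional libraries; Bowtie, RSEM and the mm9 build are named, without versions, per the submitters' processing notes. The authors deposited expected counts per gene (RSEM estimates), which were rounded to whole numbers here. No source used here gives the annotation, strand setting or filters. Depth was 18290912 to 27503254 counts.

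Groups were compared with edgeR 4.0.16 in R 4.3.3 (quasi-likelihood F test, TMM factors, filterByExpr with minimum count 10 and minimum total 15, genotype as the 1 coefficient) over 12137 genes, with Benjamini-Hochberg adjustment and calls below 0.05. The standard error is the log2 fold change divided by the square root of F, in size. CPM use TMM-adjusted library sizes; log2 CPM use a prior count of 2. Gene order and names were taken from RefSeq, which matched 99.0% of tested genes; its build, GRCm38.p6, differs from that of the counts, so gene coordinates are left out; exon overlaps came from GENCODE M21, and promoters from RefSeq (the first listed start where a gene had several, as 18 of the 54 did).

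The genes and lists were chosen with earlier results of these data known. Values in every library are given for the 10 largest and 6 smallest log2 fold changes, the 4 largest ranges between SOX17KO libraries, the first and last gene, the 3 highest CPM of each role group, the 5 tested genes beyond each end (some by fold change alone), and called or most abundant relatives; other genes in text were named after their values were seen. Alternatives were RLE factors, library totals, 2 other filters, DESeq2 1.42.0, limma-voom (limma 3.58.1), unrounded values, a replicate block and each library left out. Same-numbered SOX17KO and Control libraries showed no sign of pairing, and the main fit used none. Figures were drawn with matplotlib 3.10.9.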

Additional observations from a re-analysis of the deposited data

How the results depend on the processing

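The direction of the log2 fold change of each of the 58 genes held under every alternative with 3 exceptions: Otub2 ranged from -0.56 to 0.25, Adck1 from -0.09 to 0.29 and Tnfaip2 from -0.10 to 0.55 with 1 SOX17KO library left out; none of these was called, and the cause was not tested. The median of the 58 genes was 0.49 to 0.52 under all of them. The number of the 58 called higher was 33 to 46 with other normalizations, filters, DESeq2, limma-voom or unrounded values, and 3 to 51 with 1 library left out. Over all genes, leaving out 1 library gave 97 to 1453 calls higher and 94 to 1255 lower, and DESeq2 called 771 higher and 668 lower, in place of 446 and 388. With the replicate number as a block, 183 genes were called higher and 143 lower, and 5 of the 58 were called higher. Same-numbered SOX17KO and Control libraries had correlations of their deviations of -0.186, -0.0467 and -0.181, which show no sign of pairing. With 3 libraries per group this check cannot exclude a pairing.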
